A study of Arabidopsis thaliana with 12 samples.

Results

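The shift of ribosome loading from light to darkness was measured in Arabidopsis thaliana seedlings on 8 Affymetrix ATH1 arrays, out of 12 arrays in the series. Ribosome loading is the log2 value of a transcript in ribosome-captured RNA, called polysomal RNA here, minus its log2 value in total RNA of the same extract. The shift is the loading in darkness minus the loading in light, so a positive shift means that the ribosome-bound share of a transcript was higher in darkness, relative to the rest of the array. It was computed for every probe set except the controls, 22746 of 22810 probe sets.

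The seedlings were 14 days old and whole, of ecotype Col-0, and all of them carried 35S:HF-RPL18B, a His6-FLAG-tagged ribosomal protein L18B driven by the near-constitutive 35S promoter. In the dark groups, seedlings spent 1 h in darkness that began in the middle of the light period of a long-day cycle, and in the light groups 1 h in continued light. Each of the 4 groups (dark polysomal, dark total, light polysomal and light total RNA) has 2 arrays, from 2 independent replicate experiments. Total RNA was taken from 1 mL of a clarified extract and polysomal RNA from anti-FLAG capture of 13 mL of it, in a buffer with cycloheximide and chloramphenicol, which hold cytosolic and organellar ribosomes on their mRNAs. The other arrays of the series, from seedlings reilluminated for 10 min after the dark hour, lie outside the comparison and are given as values only.

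Plants regulate protein synthesis by light on top of transcription: without photosynthesis the supply of sugar and energy falls, and initiation on many mRNAs is slowed while other mRNAs stay on ribosomes. Messenger RNAs for ribosomal proteins are a known target of such control in plants and in other eukaryotes, and synthesis of a ribosome is among the costliest processes of a growing cell. The tag used here sits on cytosolic ribosomes, so transcripts of the chloroplast and mitochondrial genomes, which are read by the organelles' own ribosomes, are in the capture only as material carried along with it.

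Loading was higher in darkness for some transcripts and lower for others. The planned fit without pairing called 0 probe sets, and other unpaired settings called up to 247. The calls given here come from a fit that treats the replicate experiments as pairs. Most of them were lost when certain single arrays were left out. Of 130 measured genes for cytosolic ribosomal proteins, 15 were called lower (11.5%) and none higher, and most of the 130 were not called. Of all genes 2.97% were called lower. Among nuclear genes with a mean of at least log2 5, that share was 8.80% for genomic spans of 1001 to 1500 bp. It was 9.10% for spans of 1501 to 2000 bp. Of 8 nuclear genes for plastid ribosomal proteins, 2 were called lower. Loading of GIGANTEA, of the starch-degrading enzyme gene PWD and of the sucrose phosphate synthase gene ATSPS4F was called higher in darkness, and loading of the chlorophyll synthesis gene CHLM lower. At GIGANTEA and ATSPS4F total RNA fell while polysomal RNA differed little. The calls at GIGANTEA and PWD were lost without any single array, and those at ATSPS4F and CHLM without some of them. Of 69 chloroplast-encoded transcripts, 20 were called higher and none lower, where 1.67% of all genes were called higher. Long genes tended to have positive shifts and short genes negative ones.

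How many probe sets pass a test depends on whether same-numbered arrays are treated as pairs. In a limma fit of 4 group means with no pairing, 0 of 22746 probe sets (0.0%) had a Benjamini-Hochberg adjusted p under 0.05. The smallest adjusted p was 0.0585, and 3684 probe sets had an unadjusted p under 0.05. In the limma fit with the replicate experiment as a block, 1159 probe sets (5.1%) passed, 543 with higher (2.39%) and 616 with lower (2.71%) loading in darkness. When each extract's loading was first computed and the 4 extracts were then compared with limma, 1616 probe sets (7.1%) passed, 811 higher (3.57%) and 805 lower (3.54%), and they held all 1159. This fit and the blocked one give the same shift for each probe set, so that overlap is no separate evidence. A probe set is termed called below where the blocked fit gave an adjusted p under 0.05, a rule taken after the fit without pairing had called none.

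That count of 1159 rests on few arrays. It was 630 without dark polysomal replicate 1, 98 without dark polysomal replicate 2, 15 without dark total replicate 2, 220 without light polysomal replicate 1, 88 without light polysomal replicate 2 and 125 without light total replicate 2. It was 1119 without dark total replicate 1 and 856 without light total replicate 1. The balance of directions rests on the scaling of the arrays: 46.9% of the calls were higher in darkness on the deposited values, 29.6% after each array was centred on its median (330 higher and 785 lower) and 36.7% after nuclear probe sets were quantile-normalized again. That centring lowered the median shift of all probe sets to -0.05, against 0.02 on the deposited values.

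Array medians lay between log2 6.05 and 6.19, and replicate arrays correlated at r = 0.993 to 0.995 across probe sets. The median standard error of a shift was 0.17 on the log2 scale in the blocked fit and 0.19 without the block. Of all shifts, 90% lay between -0.53 and 0.55, and 64.2% had the same sign in both replicate experiments. A shift of at least 2-fold was seen for 37 probe sets upwards, all of them called, and for 140 downwards, of which 135 were called. Of 13355 genes, each read from 1 probe set, 620 were called (4.64%), 223 of them higher (1.67%) and 397 lower (2.97%). The dark and light loadings of all 620 called genes did not overlap, as was the case for 48.5% of all genes. The last nuclear gene inside the threshold on the lower side was AT3G60300 (shift -0.73, adjusted p = 0.0497), and the first outside it was AT1G56090 (shift -0.58, adjusted p = 0.0502).

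The strongest fall of loading among nuclear genes was at AT5G03050. In darkness this transcript read log2 5.15 and 4.71 in polysomal RNA and 5.87 and 5.63 in total RNA, and in light 6.78 and 6.64 in polysomal RNA and 5.73 and 5.25 in total RNA. Its loading was thus -0.72 and -0.92 in the dark extracts, against 1.05 and 1.39 in the light extracts. The groups lay far apart, and the shift of -2.04 ± 0.17 (SE, n = 2 arrays per group) had an adjusted p of 0.00047 with limma. The change lay in polysomal RNA, which fell by 1.78, while total RNA differed by 0.26 (adjusted p = 0.2).

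AT3G55170, a locus of the large-subunit ribosomal protein list, had loadings of -0.47 and -1.32 in the dark extracts, against 1.00 and 0.96 in the light extracts. Its shift was -1.87 ± 0.27 (adjusted p = 0.00609), and the light values lay closer together than the dark ones. AT4G16447 was lower in darkness with little spread: its loading was 0.01 and 0.10 in darkness, against 1.43 and 1.58 in light, a shift of -1.45 ± 0.16. The calls at AT5G03050, AT3G55170, AT4G16447, AT5G64180 (-1.43) and AT1G28150 (-1.41) also held without each of the 8 arrays in turn.

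A different pattern was seen at AT1G72060, where both pools rose. This transcript read log2 9.39 and 8.89 in dark polysomal RNA and 9.63 and 9.53 in dark total RNA, against 8.24 and 7.36 in light polysomal RNA and 7.05 and 6.16 in light total RNA. Total RNA was higher in darkness by 2.98 and polysomal RNA by 1.34, so that loading fell to -0.24 and -0.64 in darkness, against 1.20 and 1.20 in light (shift -1.64 ± 0.24). AT5G56100 followed it, with total RNA higher by 2.14 and polysomal RNA by 0.53 (adjusted p = 0.11), and so did AT3G23880, with 1.78 and 0.37 (adjusted p = 0.34). The call at AT1G72060 was lost without dark total replicate 2 (adjusted p = 0.053), and those at AT5G56100 and AT3G23880 without 5 and 6 of the 8 arrays.

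The other genes among the 12 largest falls were AT1G53030 (-1.53), AT1G21770 (-1.52), AT2G21195 (-1.50) and AT5G50335 (-1.46). Across all 12 the loadings lay between -1.89 and 0.10 in the dark extracts and between 0.05 and 1.58 in the light extracts, and for each gene the groups did not overlap. In 4 of the 12 the shift differed by more than 1 between the replicate experiments: at AT1G53030 it was -0.32 in the first and -2.75 in the second. Polysomal RNA fell in 9 of the 12 and total RNA rose in 4.

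**Figure D1:**
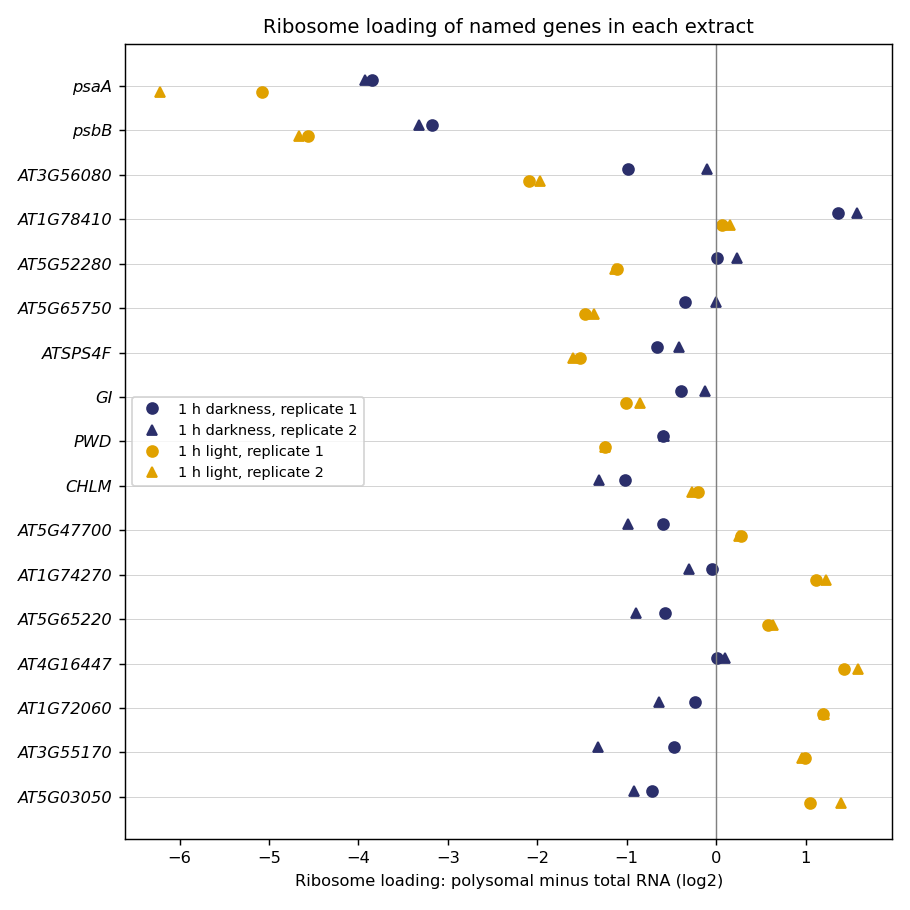
Ribosome loading (log2 polysomal minus log2 total RNA, horizontal axis) of 17 named genes, with 1 point for each of the 2 dark extracts (blue) and 2 light extracts (yellow). Dark points lie right of the light points in the upper 9 genes and left of them in the lower 8, and psaA and psbB, encoded in the chloroplast, lie far below 0 in every extract.

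Among nuclear genes with higher loading in darkness, the largest shift was at AT3G56080, 1.49 ± 0.24 (adjusted p = 0.0101, limma). Its loading was -0.98 and -0.10 in darkness, against -2.10 and -1.97 in light. The difference lay in total RNA, which fell by 1.18, while polysomal RNA differed by 0.31 (adjusted p = 0.24). AT1G78410 was the reverse. It read log2 5.48 and 6.20 in dark polysomal RNA and 4.11 and 4.63 in dark total RNA, against 4.20 and 4.33 in light polysomal RNA and 4.13 and 4.18 in light total RNA. Its light values were all close to the lower quartile of the arrays, which was 4.07 to 4.15, so its light loading of 0.07 and 0.15 is a ratio of weak signals. The shift was 1.36 ± 0.22.

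ATSPS4F encodes a sucrose phosphate synthase, which makes the sugar exported from leaf cells. It read log2 5.87 and 6.51 in dark polysomal RNA and 6.53 and 6.93 in dark total RNA, against 6.12 and 6.16 in light polysomal RNA and 7.64 and 7.76 in light total RNA. Loading was higher in darkness by 1.02 ± 0.20 (adjusted p = 0.0188). The amount of the transcript fell by 0.97, while its polysomal level differed by 0.05 (adjusted p = 0.87). PWD, for the phosphoglucan water dikinase that prepares starch granules for breakdown, had nearly equal values in the replicates: its loading was -0.59 and -0.59 in darkness, against -1.24 and -1.24 in light, a shift of 0.65 ± 0.16 (adjusted p = 0.0343). DPE1, the other measured gene of starch breakdown, had a shift of 0.23 and was not called.

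Loading was also higher in darkness at AT5G52280 (1.25 ± 0.17) and AT5G65750 (1.23 ± 0.17), which had the same change in each pool: polysomal RNA rose by 0.82 and total RNA fell by 0.42 at both. ATO, known as ATROPOS, had a shift of 0.94 ± 0.20. The 12 largest rises had loadings between -1.28 and 1.57 in darkness and between -2.47 and 0.15 in light. Polysomal RNA rose in 9 of them and total RNA fell in 6. No call in this set held without each array in turn: those at AT5G52280 and AT5G65750 were lost without dark total replicate 2 (adjusted p = 0.055 for each), and those at AT3G56080, AT1G78410 and ATSPS4F without 3 of the 8 arrays.

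Both pools contributed to the shift, and in unequal measure for rises and falls. Of 397 nuclear genes with lower loading in darkness, 307 had a fall of polysomal RNA as the only called part, 46 had a rise of total RNA as the only called part, and 18 had both. Of 203 nuclear genes with higher loading, 104 had a rise of polysomal RNA alone, 66 a fall of total RNA alone, and 12 had both. A further 19 falls and 10 rises had called changes of the same direction in both pools. Over all probe sets, polysomal RNA was called in 23.3% and total RNA in 14.3% of darkness-against-light comparisons in the same blocked fit. The median loading of the genes called higher was 0.01 in darkness and -0.74 in light, and that of the genes called lower was -0.43 in darkness and 0.45 in light, values that their selection fixes.

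**Figure D2:**
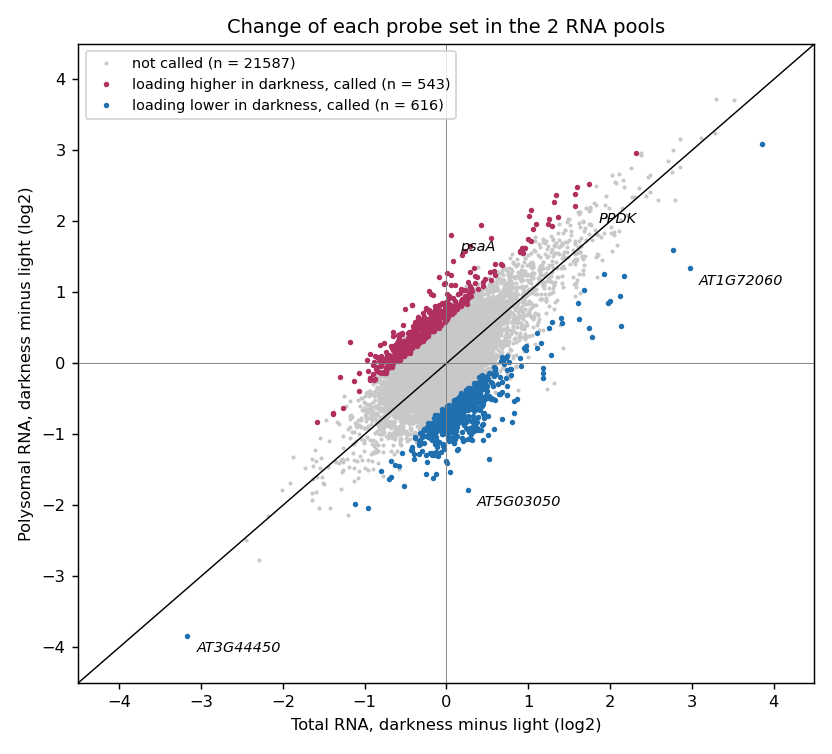
Change of polysomal RNA (vertical axis) against change of total RNA (horizontal axis), both darkness minus light in log2, for 22746 probe sets. The black diagonal marks a shift of 0: the 543 probe sets called higher (red) lie above it and the 616 called lower (blue) below it, and PPDK lies close to it although both pools rose.

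For cytosolic ribosomal proteins, 130 of 228 listed loci were measured. Their median shift was -0.29, against -0.01 for all genes, and was -0.25 in the first and -0.36 in the second replicate experiment. These genes are bright and short, with a median level of log2 10.43 and a median genomic span of 1537 bp. Among nuclear genes with a mean of at least log2 5, the median shift was -0.17 from 1001 to 1500 bp. It was -0.09 from 1501 to 2000 bp. Shifts were below 0 for 112 of the 130, and the dark and light loadings did not overlap for 97, of which 92 were lower in darkness, where 48.5% of all genes did not overlap in either direction. The median loading was -0.05 and -0.07 in the dark extracts, against 0.26 and 0.30 in the light extracts. Polysomal RNA fell for 76 of the 130 (11.7% of all probe sets were called lower in polysomal RNA) and total RNA for 3 (7.91% in total RNA).

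The 15 genes called lower had shifts between -1.87 and -0.61, and 12 of them belong to the large subunit, of which 82 genes were measured, against 3 of 48 small-subunit genes. The median shift was -0.36 for the large and -0.25 for the small subunit, a difference that was not tested. AT1G74270, a large-subunit locus, read log2 9.27 and 9.31 in dark polysomal RNA, against 10.39 and 10.63 in light polysomal RNA. Its total RNA was alike in both conditions, 9.31 and 9.62 in darkness and 9.27 and 9.40 in light. The shift of -1.35 ± 0.16 (adjusted p = 0.00397) held without each array in turn. AT5G47700, another large-subunit locus, had loadings of -0.60 and -0.99 in darkness, against 0.28 and 0.25 in light (shift -1.06 ± 0.17). In the small subunit, AT5G27700 (-0.79), AT4G39200 (-0.74) and AT2G21580 (-0.61) were called.

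Not all ribosomal protein genes moved this way. For 53 of the 130 the shift was within 0.25 of 0, and the highest values were 0.51 at AT5G02870 and 0.42 at AT3G09630, neither of them called. The number of cytosolic ribosomal protein genes called lower was 2 without dark polysomal replicate 2, dark total replicate 2 or light polysomal replicate 2, 3 without light total replicate 2, 4 without light polysomal replicate 1, and 10 to 12 without any other array. The median shift of the list was between -0.36 and -0.24 under these 8 removals in the blocked fit. Many of these genes have near-identical paralogues, and a probe set can take up signal from more than 1 of them.

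Nuclear genes for ribosomal proteins of the plastid had shifts below 0 in 8 of 8 measured cases, with a median of -0.32, and 2 were called lower. Of all genes, 51.8% had a shift below 0 and 2.97% were called lower. The 8 genes are bright, with a median level of log2 11.2. Of nuclear genes with a mean of at least log2 5, 5.09% were called lower. AT5G65220 had loadings of -0.58 and -0.90 in darkness, against 0.58 and 0.63 in light, a shift of -1.35 ± 0.17 that held without each array. AT4G17560 had -0.22 and -0.31 in darkness, against 0.63 and 0.66 in light (shift -0.91 ± 0.16, adjusted p = 0.0131), and was not called without 5 of the 8 arrays. Of 4 measured translation factor loci, AT5G19510 was called lower (shift -0.71 ± 0.16), a call lost without 7 of the 8 arrays. Its total RNA was nearly the same in all extracts, 11.79 and 11.78 in darkness and 11.79 and 11.83 in light, while its polysomal RNA read 10.79 and 10.69 in darkness, against 11.53 and 11.41 in light. EIF4A-2, for the initiation factor that unwinds mRNA leaders, had a shift of 0.33 and was not called. Of 8 ribosome biogenesis genes none was called (median -0.02).

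**Figure D3:**
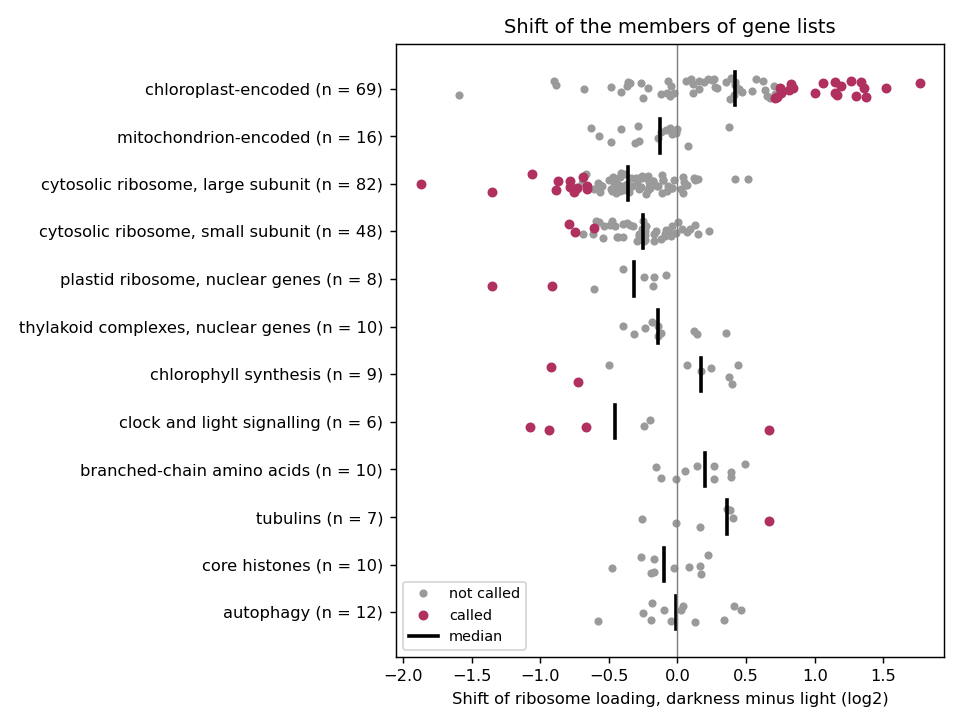
Shift of ribosome loading (darkness minus light, log2) of each measured member of 12 gene lists, with the median as a black bar and called genes in red. Both lists of cytosolic ribosomal proteins lie mostly left of 0 with medians of -0.36 and -0.25, and the chloroplast-encoded genes mostly right of it with a median of 0.42.

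In chlorophyll synthesis, 2 of 9 measured genes were called lower and none higher, where 2.97% of all genes were called lower, and 6 of the 9 had a shift above 0. CHLM encodes the methyltransferase that acts on magnesium protoporphyrin, an intermediate of chlorophyll. It read log2 10.24 and 10.29 in dark polysomal RNA and 11.26 and 11.60 in dark total RNA, against 11.09 and 10.98 in light polysomal RNA and 11.30 and 11.25 in light total RNA. Only the polysomal values of the conditions were apart, and loading fell by 0.92 on the log2 scale (SE 0.18, adjusted p = 0.0185). LIL3:2, a light-harvesting-like protein of the thylakoid that takes part in chlorophyll formation, had loadings of -1.23 and -1.06 in darkness, against -0.34 and -0.50 in light (shift -0.72 ± 0.17). The related LIL3:1 had a shift of 0.17 and was not called. The other members lay between -0.50 and 0.44, and the median of the list was 0.17. CHLM was not called without 5 of the 8 arrays, and LIL3:2 without any of them.

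Nuclear genes of the thylakoid complexes had small shifts. Of 10 measured genes none was called, with values between -0.40 and 0.35 and a median of -0.14. PSB27, an assembly factor of photosystem II, had loadings of -0.09 and -0.07 in darkness, against 0.42 and 0.21 in light (shift -0.40 ± 0.16, adjusted p = 0.167). None of 3 Calvin cycle genes was called: SBPASE, for sedoheptulose bisphosphatase, had a shift of 0.35 and RCA, for rubisco activase, -0.18. The thylakoid genes mark green tissue and read a median of log2 12.88, and of the root markers EXPA7, a root-hair expansin, was the only one measured. It had a shift of 0.13 that changed sign without single arrays, and markers of guard cells, phloem and seed storage were not analysed here.

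Genes of the clock and of light signalling moved apart. GI encodes GIGANTEA, a clock-controlled protein of photoperiod sensing that acts in the afternoon. It read log2 8.10 and 8.18 in dark polysomal RNA and 8.49 and 8.30 in dark total RNA, against 8.13 and 8.11 in light polysomal RNA and 9.13 and 8.96 in light total RNA. The transcript fell by 0.65 in amount while its polysomal level differed by 0.02 (adjusted p = 0.94), and loading was higher in darkness by 0.67 ± 0.17 (adjusted p = 0.0377). With each array centred on its median the shift was 0.60 and the adjusted p 0.0557, and the call was also lost without any 1 of the 8 arrays.

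COR27, a cold-induced repressor within the clock, went the other way. Both pools rose in darkness, total RNA by 2.17 and polysomal RNA by 1.24, and loading was 0.09 and -0.60 in darkness, against 0.77 and 0.60 in light (shift -0.94 ± 0.21). AT4G33980, of the same list, rose by 2.05 in total and 1.80 in polysomal RNA, with a shift of -0.25 that was not called. AT3G52740 and AT3G44450, also loci of the light-signalling list, fell in both pools. AT3G52740 fell by 0.96 in total and by 2.03 in polysomal RNA (shift -1.07 ± 0.19). AT3G44450 fell by 3.17 in total and by 3.84 in polysomal RNA (shift -0.67 ± 0.17). Its dark values, 4.15 to 5.09, were near the lower quartile of the arrays, and it was not called with all 12 arrays (adjusted p = 0.081), with an intensity trend (adjusted p = 0.0524) or without any 1 of the 8 arrays. AT3G52740 was not called without 4 of the 8 arrays and COR27 without 6. HYH, a light-signalling transcription factor related to HY5, had a shift of -0.20. Its dark total RNA, log2 3.68 and 3.91, was below the lower quartile of the arrays.

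All 3 measured genes of the dark and starvation list rose in both pools, and none was called for loading. PPDK, for pyruvate orthophosphate dikinase, read log2 10.44 and 10.62 in dark polysomal RNA and 10.59 and 10.66 in dark total RNA, against 8.39 and 8.26 in light polysomal RNA and 9.00 and 8.75 in light total RNA. Both pools were far higher in darkness, and the shift of 0.45 ± 0.18 was not called (adjusted p = 0.16). ATL8, which encodes a ubiquitin ligase with a RING finger, was 1.87 higher in polysomal and 1.52 higher in total RNA, with a shift of 0.35. AKINBETA1, for a subunit of the SnRK1 energy-sensing kinase, had a shift of 0.14. In branched-chain amino acid breakdown, 6 of 10 genes rose in polysomal and 6 in total RNA, and none was called for loading. The highest shifts there were 0.49 at MCCA and 0.39 at MCCB, for the subunits of methylcrotonyl-CoA carboxylase.

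The remaining lists gave few calls. TUA6, for an alpha-tubulin, was called higher (loading -0.27 and -0.10 in darkness, against -0.81 and -0.90 in light, shift 0.67 ± 0.16). It was 1 of 7 tubulin genes, and the median of the 7 was 0.36. The call was lost without 7 of the 8 arrays, as PWD's was without any 1 of the 8. None of 12 autophagy genes was called, with ATG8C at -0.58 and ATG8G at 0.46. None of 10 core histone genes was called, with HTB2 at -0.27. Among 6 rapid stress-response genes none was called although 4 rose in polysomal RNA: CML38, for a calmodulin-like protein, changed by 3.00 in polysomal and 2.77 in total RNA. Of 4 genes whose leaders hold a conserved upstream open reading frame none was called, and bZIP44 had a shift of -0.30.

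Chloroplast-encoded transcripts were strongly depleted from the capture in all extracts and less so in darkness. The median loading of the 69 measured genes was -3.73 and -3.72 in the dark extracts, against -4.01 and -4.32 in the light extracts. The median shift was 0.42, against -0.01 for all genes, with 0.38 in the first and 0.59 in the second replicate experiment, and 51 of 69 were above 0. All 20 genes called in the blocked fit were higher in darkness (1.67% of all genes were called higher). Polysomal RNA rose for 42 of the 69 (11.7% of all probe sets were called higher in polysomal RNA) and total RNA for 3 (6.35%). Since these transcripts are not read by tagged ribosomes, the values describe what the capture held and not translation in the chloroplast.

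psaA, for a core subunit of photosystem I, had the largest called rise of all genes in the blocked fit. It read log2 6.99 and 6.81 in dark polysomal RNA and 10.84 and 10.74 in dark total RNA, against 5.31 and 4.87 in light polysomal RNA and 10.38 and 11.09 in light total RNA (shift 1.76 ± 0.28, adjusted p = 0.00956). psbB, for the CP47 antenna of photosystem II, had loadings of -3.18 and -3.33 in darkness, against -4.56 and -4.67 in light (shift 1.36 ± 0.19). ycf4, an assembly factor of photosystem I, had -3.43 and -3.61 in darkness, against -4.80 and -4.98 in light (shift 1.37 ± 0.16). The calls at psbB and ycf4 held without each array in turn, that at psaA was lost without dark total replicate 2 or light polysomal replicate 2. psbT, a small subunit of photosystem II, had a shift of 1.52, and its light polysomal values of 3.90 and 3.90 were below the lower quartile of the arrays, so that its light loading is no more than a bound.

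By complex, 4 of 6 ATP synthase genes, 4 of 15 photosystem II genes and 2 of 5 photosystem I genes were called. The counts were 2 of 6 for cytochrome b6f, 2 of 10 for NDH and 0 of 4 for RNA polymerase genes. They were 2 of 8 for small-subunit and 2 of 7 for large-subunit ribosomal protein genes. Among all 69 chloroplast-encoded genes 20 were called, and 1.67% of all genes were called higher. Differences between the complexes rest on few genes and were not tested. Many of the called genes lay beside each other on the chloroplast genome. Of the 20, 16 stood in 7 runs of neighbours among the measured genes: psaB with psaA, atpA with atpF, ndhC with atpE and atpB, ycf4 with cemA and petA, psbB with psbT, psbH with petB, and rps3 with rpl22. With 20 of 69 genes called, some neighbours would both be called in any case, and how many was not worked out. Neighbouring chloroplast genes are commonly transcribed as 1 RNA, so such genes are not independent measurements.

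Not every chloroplast transcript followed. rbcL, for the large subunit of Rubisco, had a shift of 0.65 and was not called (adjusted p = 0.231), and psbA, for the D1 protein of photosystem II, had -0.22. The lowest value was -1.59 at rps14, which was -0.99 in the first and -2.19 in the second replicate experiment and was not called. Its light polysomal values, 4.29 and 4.24, were just above the lower quartile of the arrays. In 10 other genes of the 69 the light polysomal mean was below the lower quartile of the arrays. These 10 had a median shift of -0.15 and the remaining 59 a median of 0.47, with 48 of the 59 above 0. The number of chloroplast genes called higher was 2 without dark total replicate 2, 7 without light polysomal replicate 2, 11 without light total replicate 2, 12 without light polysomal replicate 1 and 13 without dark polysomal replicate 2. It was between 15 and 21 without any other array, and 17 with arrays centred on their medians. Under some alternatives chloroplast genes were also called lower: 4 without light total replicate 1, and 1 each without dark polysomal replicate 1, without light polysomal replicate 1, with pairing by extract and with an intensity trend. Of 16 mitochondrion-encoded transcripts none was called, and their median shift was -0.13. The lowest was -0.63 at nad4L (adjusted p = 0.062), a subunit of respiratory complex I. Its polysomal values, log2 4.17 to 4.44, were near the lower quartile of the arrays, and its total RNA was 0.63 higher in darkness.

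**Figure D4:**
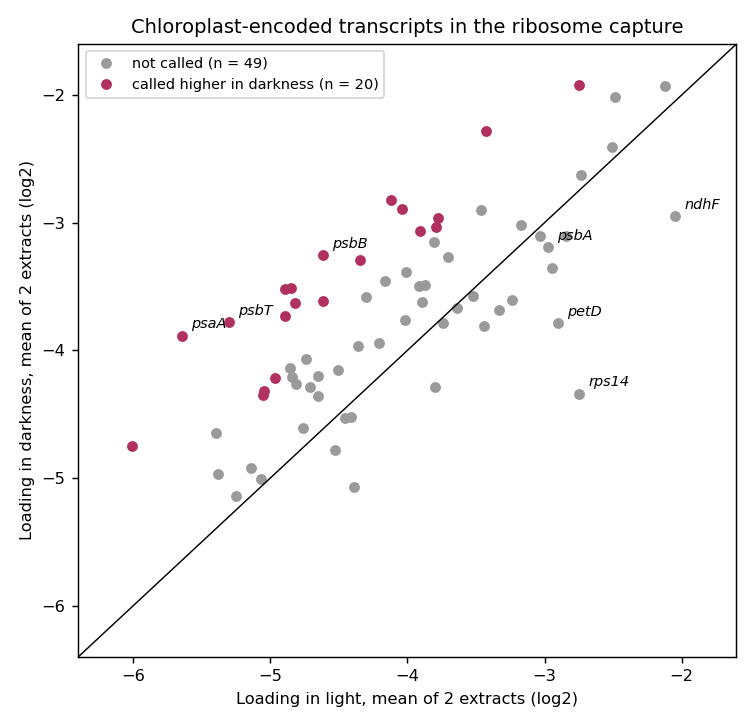
Loading (log2 polysomal minus log2 total RNA, mean of 2 extracts) of 69 chloroplast-encoded transcripts in darkness (vertical axis) against light (horizontal axis), with the diagonal of equal loading. The 20 called genes (red) all lie above the diagonal, and rps14, petD and ndhF lie farthest below it.

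The genes that shifted differed in size, a property the comparison did not use. Gene span is the genomic length of the gene, introns included, in the reference gene table. Nuclear genes called lower had a median span of 1713 bp and those called higher one of 3561 bp, against 2111 bp for all 13216 nuclear genes with a span. In genes of up to 1000 bp, 54 of 1724 were called lower (3.13%) and 2 higher (0.12%). Of all nuclear genes with a span, 2.98% were called lower and 1.54% higher, so falls in this class were near that share. Its median level was log2 3.90, below the lower quartile of the arrays. At a mean of at least log2 5, 10.4% of this class were called lower, against 5.09% of all such nuclear genes. In genes over 7000 bp, 0 of 200 were called lower and 17 higher (8.5%). The median shift was -0.07 in the shortest class, -0.09 from 1001 to 1500 bp, 0.00 from 2001 to 3000 bp, 0.19 from 5001 to 7000 bp and 0.35 over 7000 bp.

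Beyond 1500 bp, the median loading was lower in each longer class in each of the 4 extracts. In the longest class the median loading was -0.50 and -0.24 in the dark extracts, against -0.67 and -0.71 in the light extracts. In the class of 1001 to 1500 bp it was 0.11 and 0.11 in darkness, against 0.22 and 0.18 in light. The median shift in the longest class was 0.23 in the first and 0.49 in the second replicate experiment. Among genes with a mean of at least log2 5 it was -0.16 in the shortest and 0.43 in the longest class, and it was -0.08 in the class of 1001 to 1500 bp when ribosomal protein genes were left out. These medians describe classes of genes and were not tested.

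As a measure of RNA quality, for control genes read at both ends, the 3' signal minus the 5' signal (log2) was put through the same double difference as a gene. It gave -0.37 for GAPDH (-0.09 and -0.66 in the 2 replicate experiments), -0.17 for ubiquitin (-0.16 and -0.17) and 0.54 for actin (0.16 and 0.92). The 3 controls did not share a direction, GAPDH and actin differed widely between the replicate experiments, and no test was made. Their part in the trend with span, or in any gene's shift, was not tested.

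**Figure D5:**
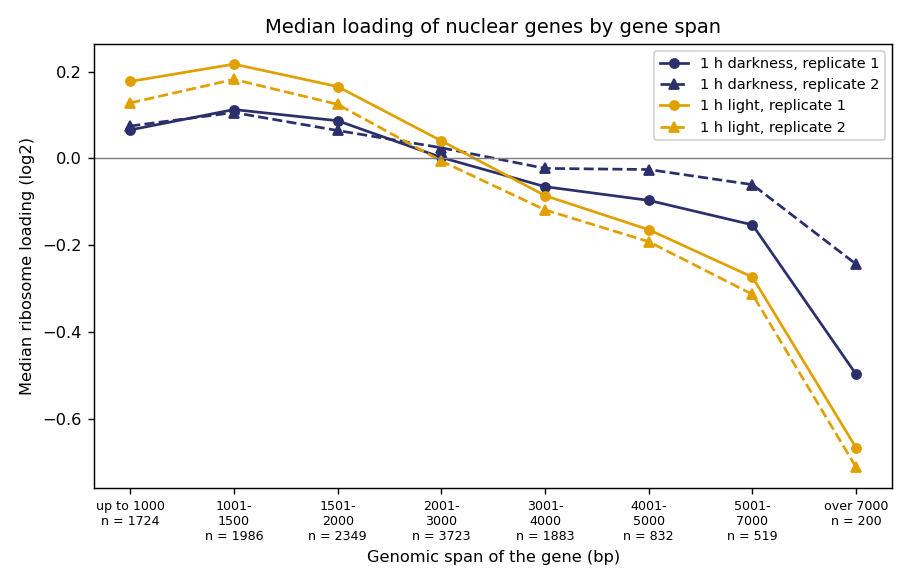
Median ribosome loading (log2) of nuclear genes in 8 classes of genomic span (horizontal axis, in bp, with the number of genes), for each of the 2 dark extracts (blue) and 2 light extracts (yellow). The light lines lie above the dark ones in genes of up to 2000 bp and below them in genes over 3000 bp.

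The reilluminated extracts, which took no part in the selection, lay mostly nearer to light. Among the 397 nuclear genes called lower, the mean reilluminated loading was nearer to the light than to the dark value in 374, and among the 203 called higher in 168. The median loading of the genes called lower was 0.33 and 0.39 in the reilluminated extracts, against -0.36 and -0.50 in darkness and 0.40 and 0.50 in light. For those called higher it was -0.51 and -0.53 after reillumination, against -0.07 and 0.09 in darkness and -0.75 and -0.74 in light. The dark and light values chose these genes and are extreme for that reason, so the counts are a description and carry no test. CHLM had reilluminated loadings of -0.29 and -0.18, close to its -0.21 and -0.27 in light, and GI -0.78 and -0.84, against -1.01 and -0.85 in light. AT4G16447, at 0.47 and 0.29, stayed nearer to its dark values of 0.01 and 0.10 than to 1.43 and 1.58 in light.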

How the data were processed

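Array signals of 8 samples were compared. The deposited table holds log2 values, made by the authors with RMA in affy according to the submitters' processing notes (versions not given in the sources used here). RMA makes the distributions of arrays alike, so a change is relative to other transcripts, and a shift common to all of them is removed. Whole seedlings were used, so fewer cells of a type and less RNA per cell cannot be told apart. Arrays have no counting depth. The number of arrays limits the precision. No genome build is given, so no coordinates are printed.

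The platform annotation pairs 13513 of 22746 probe sets (59.4%) with 1 gene, 503 with several and does not list 8730. The RefSeq gene table of TAIR10.1 matched 13436, which read 13355 genes. Names ending in _at came before _s_at and _x_at, then the highest mean. Loci without a symbol there are given by locus only. The gene lists were written by locus.

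limma 3.58.1 in R 4.3.3 fitted 4 group means with empirical Bayes moderation (residual degrees of freedom 4, prior 5.67). All p-values are two-sided and were adjusted by Benjamini-Hochberg over 22746 probe sets, at 0.05. Without pairing they measure the spread between the 2 arrays of a group. With the replicate experiment as a block, a difference between the experiments that all groups share is removed. Those p-values measure only the spread that remains. The alternative fits were the replicate block (residual 3, prior 10.3), pairing by extract (residual 2, prior 14.6), all 12 arrays, other scalings, an intensity trend, a mean of at least log2 5 and removal of each array. The code was tested on simulated data. Figures used Python 3.11.15, pandas 2.3.3 and matplotlib 3.10.9.

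The pairing comes from the labels' protocols, in which both RNA pools come from 1 clarified extract and the replicates are independent experiments. Deviations of same-numbered arrays from their group means correlated at 0.30 to 0.49 across probe sets for all 6 pairs of groups. Between the 2 pools of the same extracts, r was 0.30 in light, the lowest of the 6, and 0.49 in darkness, the highest. With 2 arrays per group these correlations rest on 1 contrast each.

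The genes named were the 12 largest nuclear rises and falls with the same sign in both replicates, and from each list the 4 called members with the largest shift or, where none was called, 2 by value, plus PPDK, ATL8, GI, CHLM, LIL3:2, PSB27, AT3G44450 and HYH. As the fit without pairing called none, the rule was applied to the blocked calls. Other genes were named after their values were seen. The members and lists were chosen with earlier results of these data known. Protein and promoter sequence features were not analysed here.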

Additional observations from a re-analysis of the deposited data

Results flagged for a closer look

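In 30 of 13270 nuclear genes, darkness changed the RNA pools in opposite directions. The change in each pool and the difference between them were all called in the blocked limma fit. That difference is the shift, so its call follows largely from those of the pools. Most blocked calls were lost without certain single arrays, as given above. In 18 of the 30, among 397 nuclear genes called lower, total RNA rose while polysomal RNA fell. Their shifts were -1.46 at AT5G50335, -1.36 at AT1G49170, -1.23 at AT1G18680, -1.15 at AT1G07440, -1.11 at AT5G05750 and -1.08 at AT2G39100. MED6, a subunit of the Mediator complex of transcription, followed with -1.06 (total RNA 0.57 higher, polysomal RNA -0.50), and AT1G48160 with -1.06. The others were AT1G33050 at -0.99, AT1G77750 (RPS13 in the reference table) at -0.97, AT5G08565 (SPT4-1) at -0.94, AT1G48550 at -0.93, AT3G47610 at -0.85, AT5G05090 at -0.85, Fes1C at -0.82, AT5G05100 at -0.81, AT4G15810 at -0.78 and AT2G40620 (bZIP18) at -0.74.

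In the other 12, among 203 nuclear genes called higher, total RNA fell while polysomal RNA rose. The shifts were 1.25 at AT5G52280, 1.23 at AT5G65750, 0.96 at AT3G02760, 0.90 at AT5G25100 and 0.90 at CHR23, a chromatin remodeller. NET1D, of the actin-binding NETWORKED family, had 0.88, AT5G64030 had 0.86, and GTR1, a glucosinolate transporter, had 0.85. LrgB had 0.80, AT1G12470 had 0.82, AT2G34300 had 0.77 and AT5G52410 had 0.72. Light polysomal values were log2 4.16 and 4.03 at AT5G52410 and 4.25 and 3.81 at CHR23. They lay near the lower quartile of the arrays, 4.07 to 4.15, so the light loadings there rest on weak signals. Values of GTR1 were log2 6.75 and 6.76 in dark polysomal and 6.70 and 6.65 in dark total RNA, against 6.16 and 6.48 in light polysomal and 6.95 and 7.22 in light total RNA.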

How the results depend on the processing

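Without pairing, limma called 0 probe sets, and also 0 with arrays centred on their medians, with nuclear probe sets quantile-normalized again and at a mean of at least log2 5. The unpaired count was 247 (76 higher and 171 lower) with all 12 arrays in 1 fit, 65 (15 and 50) with an intensity trend, and between 0 and 116 when each array was left out, with 116 without dark total replicate 1. With the replicate block it was 1159, and 1616 with pairing by extract. Under the block it was 1712 with all 12 arrays, 1115 with centred arrays, 1621 with an intensity trend, 1600 at a mean of at least log2 5, 1111 with nuclear probe sets normalized again, and between 15 and 1119 when each array was left out (630 and 98 without the first and the second dark polysomal array, 220 and 88 without the light polysomal arrays, 15 without dark total replicate 2 and 125 without light total replicate 2). These blocked alternatives were chosen after seeing the data. Leaving out an array leaves 2 residual degrees of freedom and 1 array in a group, which is then assumed to vary like the others.

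Of 45 named genes called with the block, 45 were called with pairing by extract and 9 without each array in turn. The sign turned for 3 genes that were not called. EXPA7 ranged from -0.18 to 0.45 over the removals in the unpaired fit, with -0.02 without dark total replicate 1, and was -0.0076 without dark polysomal replicate 1 and -0.10 without light total replicate 2 in the blocked fit. CML38 ranged from -0.48 to 0.95 in the unpaired fit, with -0.09 without dark polysomal replicate 2, and was -0.40, -0.063 and -0.22 in the blocked fit without dark total replicate 1, light polysomal replicate 2 and light total replicate 1. HTB2 was 0.042 in the blocked fit without dark polysomal replicate 2. List medians took the other sign in 20 of 313 alternatives, all in 7 lists near 0. For transcripts near the lower quartile of an array, the signal cannot show a further fall. Sequence features were not analysed here.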

Other observations

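Gene families were also read by symbol, which was done after the values were seen and carries no test. Of all 13355 genes, 1.67% were called higher, 2.97% were called lower and 51.8% had a shift below 0. Of 10 genes of the NETWORKED family, whose proteins bind actin at membranes, 9 had a shift above 0, and NET1D (0.88), NET4B (0.66) and NET1B (0.65) were called higher. NET1A and NET1C were at 0.29 and 0.15. The means of NET1C, NET3B and NET2C were log2 3.70, 3.34 and 3.28, below the lower quartile of the arrays, so their shifts are ratios of weak signals. NET1D and NET1B span 6753 and 6574 bp, and NET4B 2721 bp. Of 29 serine carboxypeptidase-like genes, 18 were above 0 and 3 were called higher, among them scpl46 with 0.75. The subtilisin-like protease genes ATSBT5.2 (0.90) and SBT4.12 (0.72) were called higher, out of 8 measured.

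Among 12 ubiquitin-conjugating enzyme genes 10 were below 0, and UBC28 (-0.83) and UBC27 (-0.71) were called lower. UBC28 read log2 10.77 and 10.89 in dark polysomal RNA and 12.17 and 12.41 in dark total RNA, against 11.36 and 11.39 in light polysomal RNA and 12.11 and 11.90 in light total RNA. Of 4 Mediator genes, MED6 (-1.06) and MED19A (-0.73) were called lower. Of 3 genes with an OEP16 symbol, ATOEP16-4 (-0.96) and OEP16-3 (-0.77) were called lower, while ATOEP16-2 was at 0.58.

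A few single genes with roles in development, picked after their values were seen, were also lower in loading. Developmental regulators were not read as a group, so these genes do not stand for them. NGA1, a leaf and gynoecium transcription factor, read log2 5.09 and 5.12 in dark polysomal RNA, against 6.60 and 7.07 in light polysomal RNA. Its shift was -1.21 ± 0.20, smaller than the fall in polysomal RNA, since its total RNA was lower in darkness as well. STOMAGEN, the peptide that promotes stomata, had total RNA higher by 0.68 in darkness and a shift of -1.08 ± 0.20. ULT1, a trithorax-group regulator of meristems, had a shift of -1.15 ± 0.24. RAPTOR1, a partner of the growth-controlling kinase TOR, went the other way with 0.73 ± 0.16: it read 7.33 and 7.29 in dark polysomal RNA and 7.37 and 7.25 in dark total RNA, against 6.91 and 6.86 in light polysomal RNA and 7.61 and 7.61 in light total RNA.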
